A study of Mus musculus with 2 samples.

Results

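The complement genes described here were 9 of the 32285 genes counted in single cells of Lewis lung carcinoma (LLC) tumors grown in mice with or without deletion of Gucy1b1 in pericytes. They were chosen by name. The set comprised the 3 chains of C1q (C1qa, C1qb and C1qc), the components C3, C4b, Cfb and Cfd, and the anaphylatoxin receptors C3ar1 and C5ar1. All 9 members were found by symbol and had UMIs (unique molecular identifiers, each counting a transcript once) in both libraries. A further list of 40 complement genes, covering proteases, the terminal pathway, regulators and other receptors, was read beside them.

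Complement is a cascade of proteins that marks cells and debris for removal. C1q, built from its A, B and C chains, recognizes immune complexes and dying cells and starts the classical pathway, in which C4 and C2 are cleaved to form the convertase that cleaves C3. In the alternative pathway, factor B (Cfb) binds activated C3 and is cut by factor D (Cfd, also called adipsin) to form a second C3 convertase. The released peptides C3a and C5a act through the receptors C3ar1 and C5ar1, and are known as chemoattractants and activators of myeloid cells. The liver makes most of the circulating components, whereas C1q is largely a product of macrophages and dendritic cells, and stromal cells can make C3, C4 and factor B locally.

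The control library, sGC-Ctr, came from mice with floxed Gucy1b1 (Gucy1b1 flox/flox), the gene of the beta-1 subunit of soluble guanylate cyclase (sGC). The other library, sGC-ΔPC, came from Cspg4-CreERT2 mice with the same floxed alleles, spelled Gucyc1b1 flox/flox in the label, in which tamoxifen activates Cre in cells that express Cspg4. Mice of both genotypes thus carried the floxed alleles, and Cre was in sGC-ΔPC alone. The mice were on a C57BL/6 background, 5 doses of tamoxifen were given to both genotypes at 4 weeks of age, LLC cells were inoculated at 8 weeks, and tumors were dissected 2 weeks later. Cells of 3 tumors were pooled into each library, so that the genotype, the library and the pool cannot be told apart and the spread between tumors is unknown. No test between genotypes was run, and each interval (95%) covers counting error only. RNA of the driver gene Cspg4 was not confined to pericytes. It stood at 165 and 83.2 UMIs per 1000000 UMIs of the class (CPM) in pericytes of sGC-Ctr and sGC-ΔPC. In macrophages it stood at 46.9 and 26.5 CPM, where Gucy1b1 had 2 and 10 UMIs. This RNA does not show where Cre acted, which was not tested here. With this driver the paper's lineage tracing in tumors found the pericyte marker Desmin in all labeled cells.

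The libraries differed in depth. After quality control, 12220 cells with a median of 35776.5 UMIs remained in sGC-Ctr and 22498 cells with a median of 8685 UMIs in sGC-ΔPC. Cells were placed in a class by the summed level of its markers, and 10804 and 16210 cells had 1 class, 362 and 1347 had markers of several classes and were set aside, and 1054 and 4941 were left without a class. The classes held 2923 and 3324 macrophages, 127 and 295 fibroblasts, 35 and 38 pericytes, 7315 and 12111 cancer cells, and 63 and 57 endothelial cells (ECs), with every marker of its own list found in each. Of the 5 classes fibroblasts differed the most between libraries in depth, with a median of 21654 UMIs in sGC-Ctr and 3344 in sGC-ΔPC, and 10 and 58 of them lay within 1.5-fold of the lower limit of the gate. Of the barcodes, 131 occurred in both libraries, and leaving them out moved no level outside its interval. The gene meant to be deleted, Gucy1b1, had 58 UMIs in pericytes of sGC-Ctr and 12 in those of sGC-ΔPC (133 and 41.6 CPM), a log2 ratio of -1.68 (-2.71 to -0.77). Tags from the 3′ end may lie outside the deleted part, so this value checks the labels in part.

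All positions are on the mouse build GRCm38. The C1q genes lay side by side on the minus strand of chromosome 4, with C1qb at chr4:136880129-136886187, C1qc at chr4:136889804-136893065 and C1qa at chr4:136895917-136898803. On chromosome 17, also on the minus strand, lay C4b (chr17:34728380-34743882), Cfb (chr17:34856374-34862518) and C3 (chr17:57203970-57228136). Cfd lay on the plus strand at chr10:79890853-79892655, and the receptors on the minus strand at chr6:122847138-122856161 (C3ar1) and chr7:16246743-16259540 (C5ar1). C4b has a near copy, C4a, and 172 of the 451 windows of 50 bases in the last 500 bases of C4b (38.1%) were also found in C4a. Counts of C4b are therefore uncertain, since reads from such windows could not be placed. Cfb overlaps the same-strand gene Gm20547, which was not among the genes counted.

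To show what lies upstream of a gene of each kind, the bases before the start of C1qb, of C3 and of C3ar1 are printed from RefSeq (GRCm38.p6), which held a promoter for 6 of the 9 members. The windows are chr4:136886201-136886450 for C1qb, chr17:57228137-57228386 for C3 and chr6:122856162-122856407 for C3ar1, all read 5′ to 3′ on the minus strand, and they hold 250, 250 and 246 bases. Capitals mark matches, on either strand, to the letters of 5 motifs.
C1qb: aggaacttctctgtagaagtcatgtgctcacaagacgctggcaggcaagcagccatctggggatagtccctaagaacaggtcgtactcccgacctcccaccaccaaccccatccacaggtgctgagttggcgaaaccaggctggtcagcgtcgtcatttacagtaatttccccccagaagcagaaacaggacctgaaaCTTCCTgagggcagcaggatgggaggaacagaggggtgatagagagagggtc
C3: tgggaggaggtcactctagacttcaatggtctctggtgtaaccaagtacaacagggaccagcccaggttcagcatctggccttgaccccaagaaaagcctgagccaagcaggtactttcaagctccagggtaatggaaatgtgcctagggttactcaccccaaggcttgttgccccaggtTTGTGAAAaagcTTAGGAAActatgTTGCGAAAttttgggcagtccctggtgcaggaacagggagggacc
C3ar1: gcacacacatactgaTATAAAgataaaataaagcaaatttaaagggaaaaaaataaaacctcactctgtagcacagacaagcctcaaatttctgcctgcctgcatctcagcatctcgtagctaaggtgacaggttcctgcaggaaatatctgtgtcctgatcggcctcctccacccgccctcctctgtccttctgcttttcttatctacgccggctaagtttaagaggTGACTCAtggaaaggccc
In C1qb, a gene of macrophages in these tumors, the capitals are the reverse complement of AGGAAG, the core bound by ETS factors such as PU.1, at 52 to 47 bases before the start. AGGAAG occurred in 29.5% of 32851 promoters. In C3, highest in fibroblasts, 3 matches to TTNNGNAA, the pattern of C/EBP half-sites, lay at 70 to 63, 58 to 51 and 45 to 38 bases before the start. At least 1 such match was found in 36.8% of promoters and 3 or more in 2.61%. In C3ar1, TGACTCA at 18 to 12 bases before the start matched the AP-1 pattern TGANTCA, found in 6.75% of promoters, and TATAAA, found in 12.4%, lay far upstream at 231 to 226. The pattern TTCNNNGAA (GAS), held by 7.02% of promoters, was in none of the 3 windows. No match overlapped another, and a match of letters does not show a site in use.

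The 9 genes fell into clear expression domains that were the same in both libraries for 8 of them over the 5 main classes. C1qa, C1qb, C1qc, C3ar1 and C5ar1 were highest in macrophages, and C3, C4b and Cfb in fibroblasts. Cfd was the exception, with almost no UMIs in sGC-Ctr. Levels are compared between classes and libraries for 1 gene at a time, because UMIs from 3′ ends are not set per length.

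**Figure D1:**
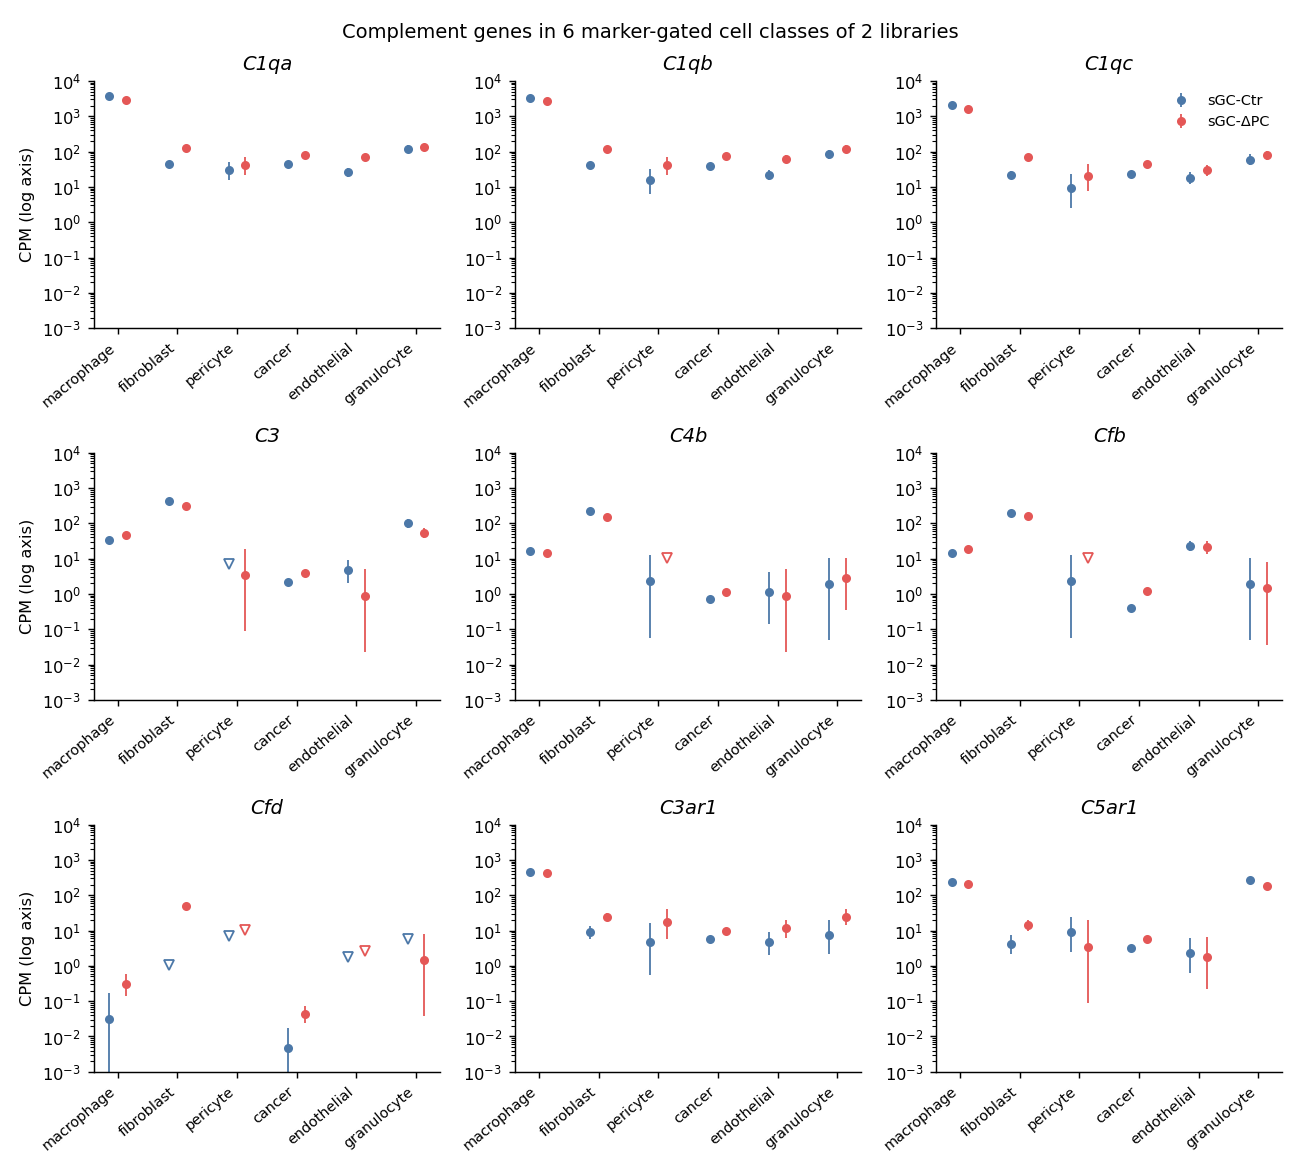
Level of each of the 9 complement genes (CPM, log axis) in macrophages, fibroblasts, pericytes, cancer cells, ECs and granulocytes of the sGC-Ctr and sGC-ΔPC libraries. Points are sums over the cells of a class with 95% Poisson intervals (counting error only), and open triangles mark the level of 3 UMIs where none was counted. The C1q chains and C3ar1 stand highest in macrophages, and C3, C4b and Cfb in fibroblasts.

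The C1q chains were transcripts of macrophages. C1qa stood at 3772 CPM (3751 to 3793) in macrophages of sGC-Ctr and at 2962 CPM (2942 to 2982) in those of sGC-ΔPC, from 123460 and 85737 UMIs. C1qb stood at 3384 and 2771 CPM and C1qc at 2044 and 1658 CPM. The 3 chains are needed together for the assembled molecule, and each was somewhat lower in sGC-ΔPC, by log2 ratios of -0.35 (-0.36 to -0.34), -0.29 and -0.30, where the median gene stood at -0.05. Macrophages held 81.7% of all C1qa UMIs of sGC-Ctr cells and 65.3% of those of sGC-ΔPC, cancer cells 12.1% and 20.9%, and cells with markers of several classes 5.33% and 9.25%. With every cell thinned to 2000 UMIs, 74.7% and 76.2% of macrophages had a UMI of C1qa (81.2% and 83.3% without thinning), leaving out 21 and 484 shallower cells. T cells, which should lack C1qa, had one in 6.45% of 62 and 9.23% of 65 thinned cells, with median depths of 3109 and 4444.5 UMIs before thinning.

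Macrophages were not uniform in C1q. The summed level of the 3 chains had a median of 81.4 UMIs per 10000 in sGC-Ctr macrophages and of 57.6 in those of sGC-ΔPC. Cells at 20 or more per 10000 made up 72.3% and 72.7% of macrophages, cells at 5 to 20 only 4.62% and 7.79%, and cells under 5 made up 23.1% (676) and 19.5% (649). The lower median of sGC-ΔPC thus lay within the C1q-bearing cells, while the share of cells with little C1q was not larger there. Across single macrophages, C1qa and C1qb levels went together with a Pearson r of 0.94 and 0.86, a description of cells that share a library and its depth. All 3 chains were found in 67.9% and 65.5% of thinned macrophages and none in 19.2% and 16.4%.

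**Figure D2:**
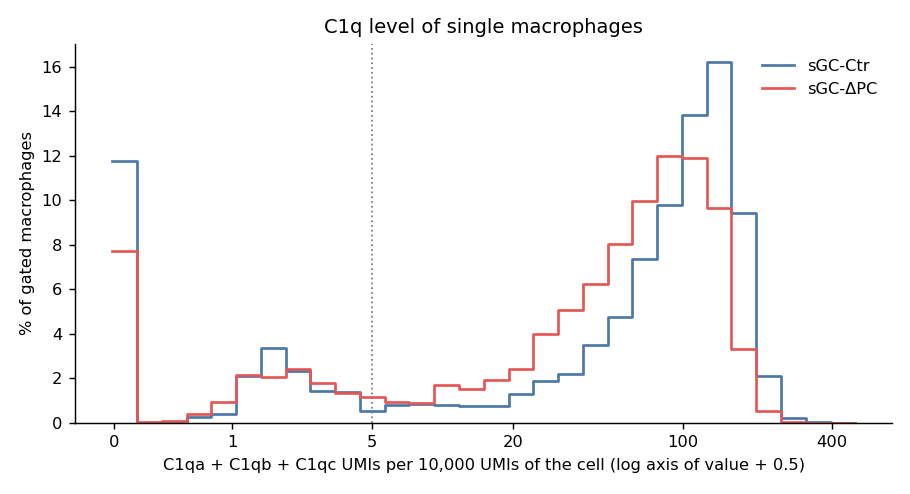
Summed level of C1qa, C1qb and C1qc per macrophage (UMIs per 10000, log axis of the value + 0.5) in sGC-Ctr and sGC-ΔPC, as percent of macrophages. The dotted line marks 5 per 10000. Cells under 5 per 10000 (23.1% and 19.5%) stand apart from those at 20 or more (72.3% and 72.7%).

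The macrophages under 5 C1q UMIs per 10000, here called C1q-low, still expressed the receptor of the macrophage growth factor CSF1: Csf1r stood at 404 CPM against 436 in the other macrophages of sGC-Ctr, and at 371 against 368 in sGC-ΔPC. Other macrophage genes, which like Csf1r are markers of the gate, were lower in them. Adgre1, which encodes F4/80, stood at 52.2 against 269 CPM and 51.0 against 224 CPM, and the mannose receptor Mrc1 at 145 against 714 and 179 against 538. Genes of monocytes were higher, with Plac8 at 1218 against 42.2 CPM and 1069 against 61.3 CPM, and Ly6c2 at 253 against 10.3 and 198 against 23.6. Genes of osteoclasts were higher too. Acp5 stood at 1296 against 69.9 CPM and 896 against 76.2 CPM, and Ctsk, the collagen-cleaving cathepsin K, at 757 against 24.8 and 571 against 43.3.

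These features lay in different cells. Of C1q-low macrophages, 43.9% and 36.7% were high in the monocyte genes (20 or more UMIs per 10000) against 2.71% and 3.63% of the others, 4.73% and 3.70% were high in the osteoclast genes, and 347 and 387 cells were high in neither. Other complement genes also differed between C1q-low and other macrophages. C4b was lower in C1q-low cells (2.83 against 19.7 CPM and 2.88 against 16.9 CPM), as were C3ar1 (191 against 512 and 233 against 456) and C5ar1 (126 against 256 and 144 against 220). C3 went the other way, at 74.4 CPM in C1q-low cells against 27.3 in the others of sGC-Ctr and 77.1 against 39.8 in those of sGC-ΔPC. Cfb differed less, at 10.5 CPM (7.85 to 13.8) against 14.8 (13.4 to 16.3) in sGC-Ctr and 13.6 CPM (10.5 to 17.3) against 19.7 (18.0 to 21.6) in sGC-ΔPC. The C1q-low cells of sGC-Ctr had a median of 6450.5 UMIs and the others 11362, whereas in sGC-ΔPC the medians were closer, 7011 and 7452. The part of depth in these differences was not tested.

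Outside macrophages C1q was low. In cancer cells C1qa stood at 43.8 CPM in sGC-Ctr and 78.7 CPM in sGC-ΔPC, and the 3 chains together came to 1.15% and 2.70% of the level in macrophages. All 8 macrophage markers had UMIs in cancer cells, with a summed level of 51.5 and 92.7 CPM against 4251 and 3681 CPM in macrophages. The number of C1q UMIs per macrophage-marker UMI was 2.06 and 2.16 in cancer cells and 1.87 and 2.09 in ECs. These values lay close to the 2.16 and 2.01 of macrophages themselves, whereas granulocytes had 0.791 and 0.927. In ECs of sGC-ΔPC 1 cell held 45 of the 79 C1qa UMIs, so their value leaned on that cell. C1qb per C1qa was also similar, at 0.879 and 0.965 in cancer cells and 0.897 and 0.936 in macrophages. C1q in cancer cells therefore stood in the ratio to macrophage markers, and in the ratio between chains, that macrophages had. Thinned to 2000 UMIs, 5.41% of cancer cells in sGC-Ctr and 15.9% in sGC-ΔPC had C1qa. Both shares lay within the wide intervals of T cells (1.79% to 15.7% and 3.46% to 19.0%, from 62 and 65 cells). For C1qc, at 3.22% and 10.6%, they also did (1.01% to 13.5% and 2.54% to 17.0%). For C1qb they did not, at 5.21% and 15.5% against 12.9% to 35.0% and 1.70% to 15.0% in T cells.

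**Figure D3:**
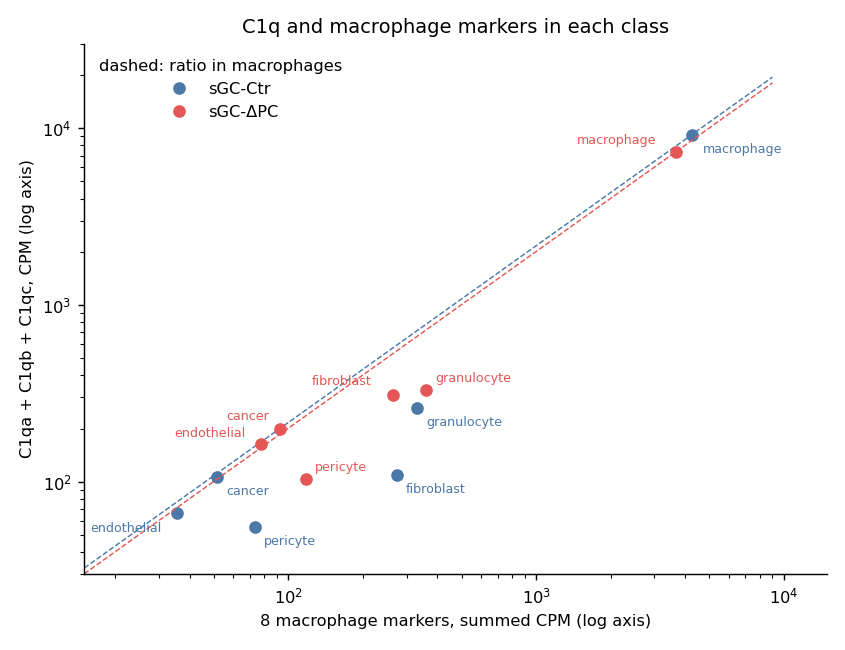
Summed level of the 3 C1q chains (CPM, log axis) against that of the 8 macrophage markers (CPM, log axis) in the classes of each library. Dashed lines give the ratio in macrophages (2.16 and 2.01), near which cancer cells and ECs lie, whereas fibroblasts, pericytes and granulocytes lie below it. The point of sGC-ΔPC ECs leans on 1 cell.

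Fibroblasts, the matrix-producing cells also called CAFs in tumors, had C1qa at 45.2 CPM in sGC-Ctr and 125 CPM in sGC-ΔPC, a log2 ratio of 1.47 (1.17 to 1.78). C1qb stood at 41.7 and 116 CPM and C1qc at 21.9 and 70.1 CPM, with ratios of 1.48 (1.16 to 1.80) and 1.68 (1.25 to 2.12). The receptor genes went the same way, with C3ar1 at 8.83 and 24.2 CPM (1.45; 0.76 to 2.19) and C5ar1 at 4.24 and 14.1 CPM from 47 UMIs in all. All 8 macrophage markers had UMIs in fibroblasts, with a summed level of 274 and 265 CPM. C1q per macrophage-marker UMI was 0.396 and 1.18 in fibroblasts, below the 2.16 and 2.01 of macrophages in both libraries. Lyz2, the lysozyme of myeloid cells and no member of the marker list, stood at 204 and 1033 CPM in fibroblasts.

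The level of C1qa in sGC-ΔPC fibroblasts was higher in shallow cells, although most of its UMIs (195 of 311) came from the deeper ones. C1qa stood at 269 CPM in the 97 fibroblasts under 2000 UMIs, at 293 CPM in the 90 cells from 2000 to 5000, and at 93.9 CPM in the 108 cells at 5000 or more. The 119 fibroblasts of sGC-Ctr at that depth had 45.2 CPM. When fibroblasts were limited to marker levels of macrophages and of cancer cells under 10% of the levels in those cells, C1qa in fibroblasts was 27.2 CPM in sGC-Ctr and 37.3 CPM in sGC-ΔPC. With this limit C1qb remained past 2-fold higher in sGC-ΔPC fibroblasts, whereas C1qa, C1qc and C3ar1 did not. The limit also depended on depth. Cancer cells had a median cancer-marker level of 16.4 and 16.3 per 10000, and fibroblasts 0.919 and 2.53. The median fibroblast of sGC-ΔPC thus lay over the limit. In sGC-ΔPC the median was 5.06 in fibroblasts under 2000 UMIs and 1.96 in those at 5000 or more. The part of depth in this result was not tested. Over the 10 alternative settings the lowest log2 ratios were 0.46 for C1qa, 0.95 for C1qb, 0.83 for C1qc and 0.78 for C3ar1. The part of RNA from macrophages in the difference was not tested otherwise.

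ECs had C1qa at 26.0 and 70.7 CPM, from 44 and 79 UMIs, a log2 ratio of 1.44 (0.89 to 2.01). This rested on 1 cell of sGC-ΔPC, which held 45 of the 79 UMIs, and 41 of those of C1qb. Without the highest cell of each library C1qa stood at 21.8 and 31.7 CPM, a log2 ratio of 0.55 (-0.17 to 1.26), and C1qb at 0.49 (-0.29 to 1.26). In the few pericytes, the contractile cells that wrap capillaries, complement was almost not counted. C1qa had 13 UMIs in the 35 pericytes of sGC-Ctr and 12 in the 38 of sGC-ΔPC (29.9 and 41.6 CPM). In sGC-Ctr its interval in pericytes (15.9 to 51.1) overlapped that in fibroblasts (37.7 to 53.7). C3 had 0 and 1 UMIs, C4b and Cfb 1 and 0 each, and Cfd 0 in both. A count of 0 there allows up to 6.89 CPM in sGC-Ctr and 10.4 CPM in sGC-ΔPC (3 UMIs), so that lower levels were not detectable at this depth.

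C3, the protein on which all pathways converge, was highest in fibroblasts, at 421 CPM (397 to 445) in sGC-Ctr and 306 CPM (285 to 329) in sGC-ΔPC, from 1192 and 760 UMIs. C4b, the mouse C4 of the classical pathway, stood there at 227 CPM (210 to 246) and 153 CPM (138 to 169). Cfb stood at 203 CPM (187 to 221) and 158 CPM (143 to 175). These 3 genes were thus lower in sGC-ΔPC fibroblasts, with log2 ratios of -0.46 (-0.59 to -0.33) for C3, -0.57 (-0.76 to -0.39) for C4b and -0.36 (-0.55 to -0.17) for Cfb. None was past 2-fold, and the median gene stood at -0.05. Thinned to 2000 UMIs, C3 was found in 34.7% and 21.7% of fibroblasts, C4b in 27.4% and 19.7% and Cfb in 25.8% and 21.2%, leaving out 3 and 97 cells. Unthinned, C3 was found in 66.9% and 30.2%. None of the 3 had a UMI in a thinned T cell.

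UMIs of these 3 genes were spread unevenly over fibroblasts. Most fibroblasts of sGC-Ctr had a UMI of each gene (C3 66.9%, C4b 60.6%, Cfb 66.1%), and a minority of those of sGC-ΔPC had (30.2%, 30.2% and 27.5%). The 10 cells with the most UMIs of C3 held 38.7% of its UMIs in sGC-Ctr fibroblasts and 48.4% in those of sGC-ΔPC. For C4b and Cfb such cells held between 34.7% and 42.2%. The part of the depth of these cells in such shares was not tested. All 3 genes were found in 59 of 127 sGC-Ctr fibroblasts and in 43 of 295 of sGC-ΔPC, and none of them in 24 and 159. The 159 cells of sGC-ΔPC without any of them had a median of 1897 UMIs, and the 43 with all of them 27891. In sGC-ΔPC the C3 level itself differed with depth, at 57.1 CPM under 2000 UMIs, 106 CPM from 2000 to 5000, and 348 CPM (323 to 375) at 5000 or more. Among fibroblasts of at least 5000 UMIs the libraries stood closer, with C3 at 422 and 348 CPM, C4b at 228 and 172 CPM and Cfb at 202 and 176 CPM. The marker level that defines fibroblasts was lower in sGC-ΔPC as well, with a median of 241 per 10000 UMIs against 442 in sGC-Ctr. The part of these shallow cells in the difference was not tested otherwise.

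Within fibroblasts, the 3 components lay on the side of adventitial markers. In the 25% of cells highest in Pi16, Dpp4, Cd34 and Ly6c1 (32 and 74 cells), genes of fibroblasts around vessels, C3 stood at 740 CPM against 305 in the other fibroblasts of sGC-Ctr, and at 492 against 165 in sGC-ΔPC. Cfb stood at 332 against 157 and 220 against 111 CPM, and C4b at 422 against 157 and 172 against 138 CPM. In the 25% highest in the contractile genes Acta2, Tagln, Thbs4 and Tnc, C3 was lower, at 169 against 518 CPM and 206 against 343 CPM. Cfb was lower there too, at 109 against 240 and 84.6 against 185 CPM. Of the 6 members with enough UMIs, 1 (C3) was past 2-fold higher in adventitial-like cells in both libraries, where 0.91% of all genes were, and none was lower (0.6% of genes). In contractile cells 2 members (C1qc and Cfb) were past 2-fold lower in both, where 1.02% of all genes were, and none was higher (0.637%). Adventitial-like cells of sGC-ΔPC were deeper (median 5514.5 UMIs) than the other fibroblasts (2911).

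In macrophages the same components were low. C3 stood at 34.4 CPM (32.4 to 36.5) in sGC-Ctr and 46.1 CPM (43.6 to 48.6) in sGC-ΔPC, a log2 ratio of 0.42 (0.31 to 0.54). Cfb stood at 14.1 CPM (12.9 to 15.5) and 18.7 CPM (17.1 to 20.3), a ratio of 0.40 (0.22 to 0.59), and C4b at 17.1 CPM (15.7 to 18.6) and 14.5 CPM (13.2 to 16.0), a ratio of -0.23 (-0.42 to -0.05). C3 and Cfb were thus higher in sGC-ΔPC macrophages and lower in sGC-ΔPC fibroblasts. All 8 fibroblast markers had UMIs in macrophages, with a summed level of 270 and 394 CPM against 49189 and 42729 CPM in fibroblasts. Thinned, C3 was found in 6.82% and 7.89% of macrophages, Cfb in 2.31% and 2.71% and C4b in 1.93% and 2.01%.

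C3, Cfb and C4b differed in the group of macrophages in which each stood highest against the other cells, and these groups were shared in part. C4b followed the resident-like cells, the top 20% in Mrc1, Folr2, Ccl8 and Cbr2 (585 and 665 cells). It stood there at 50.5 CPM against 5.66 in the other macrophages of sGC-Ctr and at 39.2 against 7.07 in sGC-ΔPC, log2 ratios of 3.16 (2.87 to 3.44) and 2.47 (2.18 to 2.77). C1qa was also higher in them, at 5356 against 3229 CPM and 4409 against 2523 CPM. Mrc1 is a marker of both the macrophage class and this state.

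C3 followed the cells high in Ly6c2, Plac8, Ccr2 and Chil3, genes of monocytes newly come from blood. It stood at 99.1 against 25.1 CPM in sGC-Ctr and 92.6 against 36.8 CPM in sGC-ΔPC, log2 ratios of 1.98 (1.80 to 2.16) and 1.33 (1.16 to 1.49). In these monocyte-like cells C1qa was lower, at 1132 against 4152 and 1284 against 3295 CPM, and C4b as well, at 4.13 against 19.0 and 6.88 against 16.1 CPM. Cfb followed the MHC class II genes, which present antigen: cells high in H2-Ab1, H2-Aa, H2-Eb1 and Cd74 had 37.3 against 9.16 CPM in sGC-Ctr and 42.2 against 12.6 CPM in sGC-ΔPC, log2 ratios of 2.03 and 1.74. Cfb was also higher in resident-like cells, at 21.6 against 11.5 CPM and 35.1 against 13.7 CPM, and in monocyte-like cells, at 25.5 against 12.5 and 26.5 against 17.1 CPM. C3 was higher in MHC class II high cells too, at 68.0 against 27.2 and 82.5 against 36.7 CPM.

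**Figure D4:**
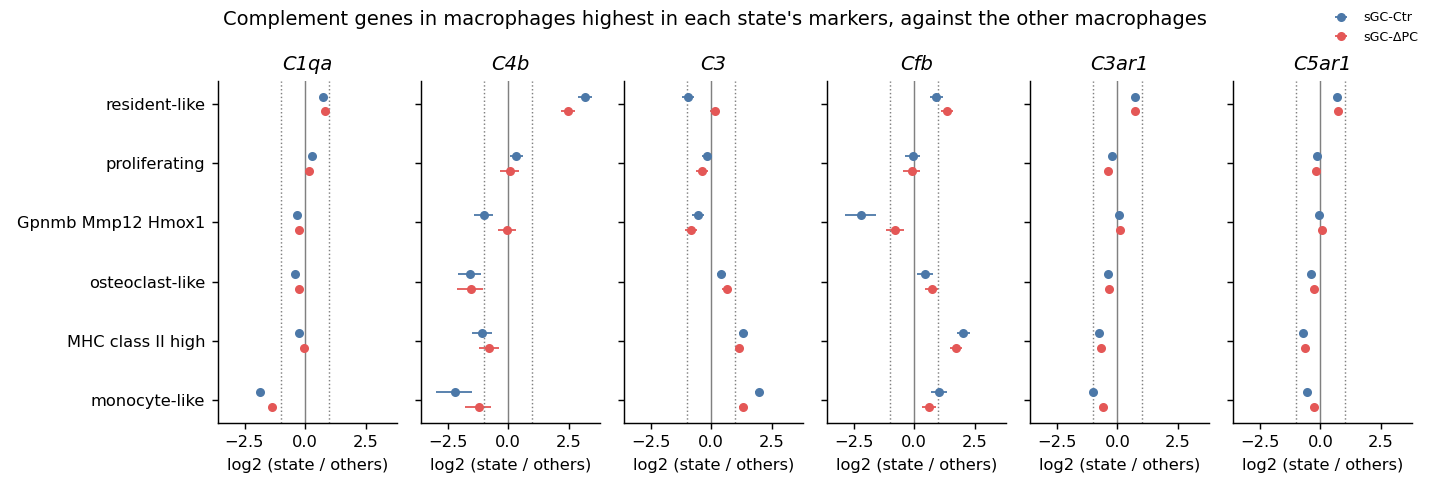
Log2 ratio of the level of 6 complement genes in the macrophages highest in the markers of each state (top 20%) to that in the other macrophages, in sGC-Ctr and sGC-ΔPC, with 95% intervals (counting error only). Dotted lines mark 2-fold; C4b is farthest to the right in resident-like cells, C3 in monocyte-like cells and Cfb in MHC class II high cells, in both libraries.

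Counted over all states, 12 of 60 pairs of a member and a state were past 2-fold the same way in both libraries. In MHC class II high macrophages 2 of 8 members (C3 and Cfb) were past 2-fold higher, where 1.12% of all genes were. In monocyte-like cells 1 member (C3) was higher, where 2.81% of genes were, and 4 (C1qa, C1qb, C1qc and C4b) were lower, where 3.72% were. C4b was the 1 member higher in resident-like cells (1.29% of genes) and the 1 member lower in cells called osteoclast-like (0.1%), where none was higher (0.427%). The latter, the top 20% in Ctsk, Mmp9, Acp5 and Ocstamp, began at only 1.11 and 1.18 marker UMIs per 10000. At 20 or more per 10000 there were 32 C1q-low and 7 other macrophages in sGC-Ctr, and 24 and 33 in sGC-ΔPC. Most cells of this group were thus not high in osteoclast genes. In cells high in Gpnmb, Mmp12, Hmox1 and Spp1, and in those high in genes of proliferation, no member was past 2-fold in both libraries. Of all genes, 0.427% were higher and 0.746% lower in the former cells, and 4.3% and 0.691% in the latter. In the Gpnmb-high cells, Cfb stood at 3.66 against 16.6 CPM in sGC-Ctr and 11.8 against 20.3 CPM in sGC-ΔPC. The states overlap, and they were drawn from the same cells in which the members were read.

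Cfb also had a level in ECs, the lining cells of vessels, at 23.6 CPM (16.9 to 32.1) in sGC-Ctr and 21.5 CPM (13.8 to 31.9) in sGC-ΔPC, from 40 and 24 UMIs. The log2 ratio was -0.14 (-0.93 to 0.63), an interval that includes a change of nearly 2-fold downward. Cfb was found in 6.56% and 7.55% of thinned ECs. ECs thus came after fibroblasts in the order for Cfb, although in sGC-ΔPC their interval overlapped that of macrophages. In sGC-Ctr 1 EC held 14 of the 40 UMIs. Without the highest cell of each library Cfb stood at 15.6 and 16.4 CPM in ECs and 13.8 and 18.1 CPM in macrophages. The place of ECs in this order is therefore uncertain. C3 in ECs of sGC-Ctr came from 1 cell with all 8 UMIs. Granulocytes had the next level of C3 after fibroblasts, at 102 CPM (76.7 to 134) in sGC-Ctr and 55.4 CPM (39.2 to 76.0) in sGC-ΔPC, the latter overlapping the interval of macrophages. In cancer cells C3 stood at 2.13 and 4.01 CPM, C4b at 0.708 and 1.11 CPM and Cfb at 0.392 and 1.23 CPM. The Cfb ratio of 1.65 (1.38 to 1.92), from 164 and 428 UMIs, was past 2-fold, and remained so without the highest cell of each library (1.72). Cfb was found in 0.0685% and 0.234% of thinned cancer cells. Summed markers of macrophages (51.5 and 92.7 CPM), granulocytes (32.3 and 63.6) and T cells (0.822 and 2.31) were also higher in cancer cells of sGC-ΔPC. Those of fibroblasts differed less (1549 and 1674). The part of RNA from other cells in the Cfb ratio was not tested. Because cancer cells were the most numerous, they still held 24.3% and 30.2% of all C3 UMIs.

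Cfd, the serine protease that is scarce in most cells and abundant in fat cells, was counted 5 times in the whole of sGC-Ctr, in 5 different cells. In sGC-ΔPC it had 213 UMIs in 32 cells, and 182 of these lay in 2 cells. One was a gated fibroblast with 126 Cfd UMIs among 23130, and the other a cell without a class with 56 among 20680. The next highest cell had 2. The gated cell had a fibroblast-marker level of 103 per 10000, just over the lower limit of 100, with 4 markers found. The cell without a class had a level of 71.1. Both cells also had many UMIs of Hp (454 and 208), which encodes haptoglobin, of the lipase Lpl (160 and 53) and of C4b (28 and 57), but few of Adipoq (2 and 6), which encodes the fat-cell hormone adiponectin. The level of Cfd in fibroblasts was 50.8 CPM in sGC-ΔPC against 0 UMIs in sGC-Ctr, a log2 ratio with a lower limit of 5.26. This difference therefore rested on 1 cell. Without that cell no Cfd was counted in the fibroblasts of either library.

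Both receptor genes were myeloid. C3ar1, the receptor of C3a, stood at 464 CPM (457 to 471) in macrophages of sGC-Ctr and 418 CPM (411 to 426) in those of sGC-ΔPC, far above every other class. Dendritic cells of sGC-Ctr followed at 34.3 CPM from few cells, against 5.53 CPM in sGC-ΔPC, and the other neighbors in the order overlapped in their intervals. C5ar1, the receptor of C5a, stood at 236 CPM (231 to 242) and 207 CPM (202 to 213) in macrophages, and at 272 CPM (229 to 321) and 181 CPM (150 to 216) in granulocytes. These 2 classes could not be ordered for C5ar1, since their intervals overlapped in both libraries. Both genes were slightly lower in sGC-ΔPC macrophages, with log2 ratios of -0.15 (-0.18 to -0.11) for C3ar1 and -0.19 (-0.24 to -0.14) for C5ar1. Thinned, C3ar1 was found in 50.9% and 45.9% of macrophages, C5ar1 in 34.3% and 30.4% of macrophages and in 34.8% and 27.7% of granulocytes, leaving out 104 and 101 granulocytes. In cancer cells C3ar1 stood at 5.60 and 9.73 CPM and C5ar1 at 3.13 and 5.78 CPM, with log2 ratios of 0.80 and 0.89 beside the 0.85 of C1qa.

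Set against all genes, the differences between libraries were small in macrophages and larger elsewhere. Of genes with at least 50 UMIs in macrophages, 0.974% were past 2-fold between the libraries, 0.693% higher in sGC-ΔPC and 0.281% lower, and none of the 8 members tested was either. In fibroblasts 2.4% of genes were past 2-fold, 1.31% higher and 1.1% lower. There 5 of 8 members were higher (C1qa, C1qb, C1qc, Cfd and C3ar1) and none lower. Cfd (0 and 126 UMIs) and C3ar1 (25 and 60) reached 50 UMIs through their counts in sGC-ΔPC. Both could therefore be counted only as higher, and the same minimum applied to all genes. In cancer cells 3.81% of genes were past 2-fold, 3.68% higher and 0.13% lower, against 1 of 8 members higher (Cfb), although the median of the members (0.90) stood above that of all genes (0.01). In ECs 1.7% were past 2-fold, 1.03% higher and 0.675% lower, against 2 of 4 members higher (C1qa and C1qb, both resting on 1 cell). In pericytes, where 2.56% of genes were past 2-fold (1.42% higher and 1.14% lower), no member reached 50 UMIs. The 5 members higher in fibroblasts were thus 4 genes highest in macrophages and the gene of 1 cell, while the 3 fibroblast components lay below 0. C5ar1, also a macrophage gene, was higher in fibroblasts too (1.73; 0.75 to 2.82). With 12 and 35 UMIs it had too few to be counted.

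**Figure D5:**
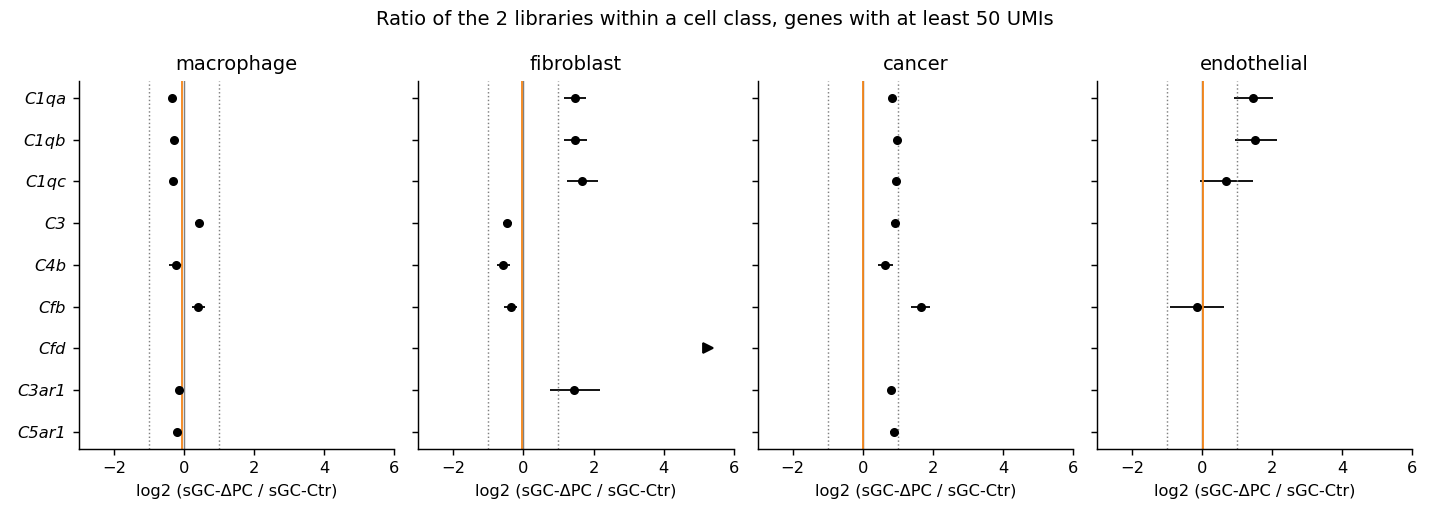
Log2 ratio of the level in sGC-ΔPC to that in sGC-Ctr of each complement gene in macrophages, fibroblasts, cancer cells and ECs, for genes with at least 50 UMIs, with 95% intervals (counting error only). Dotted lines mark 2-fold, the orange line the median gene, and the triangle the lower limit for Cfd. Macrophage ratios lie within 2-fold, C3 and Cfb lie above 0 in macrophages (0.42 and 0.40) and below 0 in fibroblasts (-0.46 and -0.36), and the C1q chains lie above 0 in fibroblasts, cancer cells and ECs.

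The genes whose levels went most like those of the members over 16 sums of a class and a library, among 14124 genes, were mostly genes of the same cells. Mrc1 (r = 0.963), Lyz2 (0.956) and Trem2 (0.951) were nearest to C1qa, Ms4a7 (0.971) to both C1qb and C1qc, and Trem2 (0.955) to C3ar1. Mrc1 and Ms4a7 are markers used to gate macrophages. P2ry13 (0.949) was nearest to C5ar1. For the stromal components the nearest were the acute-phase gene Saa3 (0.876) for C3, Mdga1 (0.930) for C4b and Surf4 (0.905) for Cfb. For Cfd it was Impg2 (0.830), a value that rests on few UMIs. The points share libraries and depth, and r is a description.

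Of the 40 other complement genes, 29 had at least 50 UMIs over the gated classes, and 22 of these were highest in the same class in both libraries. These were 7 in fibroblasts, 5 in macrophages, 4 in pericytes, 2 in cancer cells, 2 in ECs and 1 each in granulocytes and dendritic cells. Of the pericyte genes, Cd46 (2.30 and 6.93 CPM) and Cd59b (6.89 and 3.47 CPM) did not exceed the level of 3 UMIs there (6.89 and 10.4 CPM). Their place in the order is therefore uncertain. The proteases that C1q activates had their highest levels in stromal cells. C1s1 stood at 270 and 223 CPM in fibroblasts and 253 and 170 CPM in pericytes. C1ra stood at 155 and 116 CPM in fibroblasts and at 4.49 and 6.25 CPM in macrophages. In cancer cells C1ra stood at 8.15 and 10.2 CPM. Because these cells were the most numerous, they held 3408 and 3569 of its 8079 UMIs in gated cells of both libraries. The inhibitor of these proteases, Serping1, was also high in stromal cells, at 778 and 601 CPM in fibroblasts and 724 and 475 CPM in pericytes. Thus C1q and the proteases of the C1 complex were highest in different cells. Pericytes, where the 9 members had few UMIs, had the proteases and the inhibitor.

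Vtn, encoding the regulator vitronectin, stood at 98.8 and 111 CPM in pericytes. Macrophages had properdin (Cfp), which stabilizes the alternative convertase, at 397 and 331 CPM, the lectin Fcna at 77.9 and 51.4 CPM, and the chains of complement receptor 3, Itgam (572 and 623 CPM) and Itgb2 (394 and 467 CPM). Cd93 was highest in ECs at 839 and 1043 CPM. No UMI of C7, C8a, C8b or C4bp was counted in gated cells.

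Between libraries, 1 of 19 of these genes tested in macrophages was past 2-fold higher in sGC-ΔPC (0.693% of all genes), as were 3 of 13 in fibroblasts (1.31%), 0 of 6 in pericytes (1.42%), 2 of 27 in cancer cells (3.68%) and 0 of 5 in ECs (1.03%). One was past 2-fold lower, namely Cd55 in fibroblasts (1.1% of all genes), an inhibitor of the C3 convertases, at 69.2 and 32.2 CPM (-1.10; -1.50 to -0.72). The 3 higher in fibroblasts were Itgam (12.0 and 43.1 CPM), Itgb2 (8.12 and 37.9 CPM), both myeloid genes, and Clu (17.7 and 39.9 CPM), which encodes clusterin. The other 3 were Serping1 in macrophages (0.76 and 1.55 CPM) and Serping1 and Itgam in cancer cells (0.82 and 2.07 CPM; 8.01 and 16.3 CPM). The medians of the list were 0.12 in macrophages, -0.07 in fibroblasts, -0.16 in pericytes, 0.31 in cancer cells and -0.25 in ECs. In fibroblasts C1s1, C1ra and Serping1 had log2 ratios of -0.28, -0.41 and -0.37, on the same side of 0 as C3, C4b and Cfb.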

How the data were processed

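Single-cell RNA was measured in 1 library per genotype (10x Genomics 3′ kit). The counts deposited by the authors are raw UMI counts per gene and barcode, made with Cell Ranger 6.1.1 on mm10 per the submitters' processing notes, with empty barcodes already removed. The kept cells hold 476464534 and 412064152 UMIs.

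Quality control left out cells with 10% or more of UMIs from mitochondrial genes, and cells whose log UMI or gene number lay over 3 median absolute deviations from that of their library. A cell was given a class where its summed markers reached a set level per 10000 UMIs with at least 3 markers present, and was set aside as mixed where a second class reached its level with at least 2 markers. This replaced a doublet caller, and none was run. The classes are not the study's clusters. UMIs were summed per class and library and scaled to CPM. Intervals are exact Poisson, binomial or conditional (Clopper-Pearson) intervals at 95%. For counts of ratios past 2-fold, 0.5 counts were added to each sum, and a gene needed 50 UMIs over both libraries. States are the top 20% of macrophages or 25% of fibroblasts by 4 markers. Thinning drew 2000 UMIs per cell.

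All 9 members were named, other complement genes where they had at least 50 UMIs (some are not reported here), Gucy1b1 as the check of the labels, and for each member the genes nearest by Pearson r of log2(CPM + 1). Genes set beside C1q-low macrophages or the Cfd-bearing cells were chosen after their values were seen. The members, gene lists and gates were chosen with earlier results of these data known, and the lists support nothing by themselves. Gene positions are from GENCODE and promoters from RefSeq. Computation used Python 3.11.15, numpy 2.4.6, scipy 1.17.1, pandas 2.3.3 and matplotlib 3.10.9, and was tested on simulated data. The alternatives are given at the end.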

Additional observations from a re-analysis of the deposited data

Results flagged for a closer look

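C3 and Cfb differed between the libraries in opposite directions in macrophages and in fibroblasts. For C3 the log2 ratio of sGC-ΔPC to sGC-Ctr was 0.42 in macrophages and -0.46 in fibroblasts, and for Cfb it was 0.40 in macrophages and -0.36 in fibroblasts. With 1 library per genotype the difference between the classes was not tested. Over the 10 alternative settings the C3 ratio kept its sign in both classes, ranging from 0.06 to 0.59 in macrophages and from -1.50 to -0.28 in fibroblasts, and so did that of Cfb (0.15 to 0.57 and -1.15 to -0.19).

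Cells that were given no class, which enter no comparison, held 59 UMIs of Cfd in sGC-ΔPC and 1 in sGC-Ctr. Of the 59, 56 lay in 1 cell.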

How the results depend on the processing

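No paired analysis was possible because each group has 1 library, and for the same reason no library could be left out. No ratio past 2-fold changed sign under any alternative. Many levels and ratios left their intervals, which cover counting error only. Of 90 levels, 58 did so with thinning to 2000 UMIs, 48 with the 10% marker limit and 45 with the mean of per-cell CPM. No level or ratio did so without shared barcodes or without the filter by median deviation. Under the other settings 18 to 26 levels did so. Of 28 ratios, 21 did so with the per-cell mean, 16 with thinning, 14 with the 5% mitochondrial limit and 4 to 12 under the others. Of 28 pairs of a gene and a class with at least 50 UMIs, 8 were past 2-fold higher in sGC-ΔPC. This count became 14 with a mitochondrial limit of 5%, 14 with cells thinned to 2000 UMIs, 15 with the mean of per-cell CPM, and, among settings chosen after seeing the data, 5 where marker levels of macrophages and cancer cells were held under 10% and 5 without the highest cell of each library. It was between 6 and 8 without the filter by median deviation, at a limit of 25% on other markers, with 5 markers required, without shared barcodes, and among cells of at least 5000 UMIs. The added pairs under the mitochondrial limit, thinning and the per-cell mean lay mostly in cancer cells, and Cfd in fibroblasts was lost with the 5% limit, with 5 markers required and without the highest cell, since its cell was then left out. The count past 2-fold lower, 0 as reported, was 1 with thinning (C3 in fibroblasts) and 3 with the mean of per-cell CPM (C3, C4b and Cfb in fibroblasts). Both settings give shallow cells more weight, and the cause was not tested otherwise. The share of all genes past 2-fold was, at a minimum of 20 UMIs in place of 50, 2.34% in macrophages (0.974% as reported), 4.59% in fibroblasts (2.4%), 6.91% in pericytes (2.56%) and 4.4% in ECs (1.7%). The number of members highest in the same class in both libraries stayed at 8 or became 9, and the 12 pairs of a member and a state became 15 with states of the top 10%. C4b in macrophages (-0.25 to 0.05), Cfb in ECs (-0.43 to 0.20) and C1qc in ECs (-0.40 to 1.51) had ratios on both sides of 0 over the alternatives. At these depths precision was lowest in pericytes and ECs, where most members had few UMIs.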
